A study of Homo sapiens with 24 samples.

Results

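The genes described here are 36 genes of the ATF4 stress response, listed by name as ATF4 itself, the transcription factors that act with it and the targets it is known for. They are 36 of the 62754 genes of the deposited transcript table, and they hold 498 of its 252894 transcripts and 472 of the 233113 introns of the deposited intron tables. The list holds 9 transcription factors (ATF4, ATF3, ATF5, DDIT3, CEBPB, CEBPG, JDP2, NUPR1 and XBP1), 6 feedback brakes and effectors (DDIT4, TRIB3, CHAC1, PPP1R15A, STC2 and VLDLR), 4 amino acid transporter genes (SLC7A11, SLC3A2, SLC7A5 and SLC7A1), 9 enzymes of amino acid and one-carbon metabolism (ASNS, PSAT1, PHGDH, PSPH, SHMT2, MTHFD2, ALDH1L2, PCK2 and CTH) and 8 cytosolic tRNA synthetases (WARS1, SARS1, GARS1, AARS1, NARS1, EPRS1, CARS1 and MARS1).

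All cells were RKO, an established human colon carcinoma line, with a Cas9 that doxycycline switches on, and all of them, controls included, had received doxycycline at 100 ng/mL for 5 days. The control cells carried sgAAVS1, a guide that cuts the AAVS1 safe-harbour locus, and the knockout cells carried sgERH, a guide against ERH, which encodes a small conserved nuclear protein linked to RNA processing. For the last 4 h the cells had DMSO, the solvent, or cycloheximide (CHX) at 25 ug/mL, which stops the ribosome and with it translation and nonsense-mediated decay. Nuclear and cytoplasmic RNA were separated with a mild detergent and the polyadenylated part was sequenced, which gave 8 groups of guide, treatment and fraction with 3 libraries each (24 libraries, of 27.8 to 79.5 M counts, where M is 1e+06). The knockout is made in a population of guide-carrying cells rather than in 1 clone, and a bulk library cannot tell fewer cells with an RNA from less of that RNA per cell. The libraries of a group were labelled biological replicates without further detail, so the p-values measure the spread between these libraries.

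When amino acids run short or unfolded proteins collect in the endoplasmic reticulum, kinases phosphorylate the translation factor eIF2alpha, most translation slows, and the mRNA of ATF4, with its short upstream reading frames, is translated more. ATF4 then pairs with other basic leucine zipper proteins at composite sites that join a C/EBP element and an ATF element, and switches on transporters, biosynthetic enzymes and tRNA synthetases. The same programme induces its own brakes, among them PPP1R15A (GADD34), which brings a phosphatase to eIF2alpha, and the transcription factor DDIT3 (CHOP). Since ATF4 is controlled largely in translation, an mRNA level says little about the amount of its protein.

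Levels are given as CPM, the counts of a gene per M counts of its library, scaled within a fraction, and a gene was called when its p from edgeR's quasi-likelihood test, adjusted after Benjamini and Hochberg, was 0.05 or less and its log2 fold change was at least 1 in size. Every adjusted p of a gene, transcript or intron is of this kind. Of the 36 genes, 34 could be tested in the cytoplasm, 34 in the nucleus and 32 for the difference between fractions. STC2 had 0 to 8 counts per library and was tested nowhere, VLDLR had 0 to 13 counts and was tested only in the nucleus, and NUPR1 had 0 to 13 counts and was tested only in the cytoplasm. ALDH1L2, with 1 to 43 counts, was tested but stayed at or under 1.52 CPM.

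The guide was checked on its target. In the cytoplasm with DMSO, ERH stood at 136, 157 and 152 CPM in the sgAAVS1 libraries and at 72.4, 86.2 and 58.8 CPM in the sgERH libraries, a log2 fold change of -1.03 ± 0.11 (SE, adjusted p = 1.12e-06). It was -0.72 ± 0.11 (6.15e-05) in the cytoplasm with CHX and -0.48 ± 0.16 (0.0267) in the nucleus with DMSO, and in the nucleus with CHX the guides overlapped (-0.12 ± 0.16, adjusted p = 0.59). The libraries of the guides also differed in other RNA. In the cytoplasm with DMSO, the summed level of 2 nuclear RNAs was 309 to 375 CPM with sgAAVS1 and 561 to 583 CPM with sgERH. Over both treatments, mitochondrial mRNA took 3.08 to 4.12% of cytoplasmic counts with sgAAVS1 and 4.69 to 6.84% with sgERH, and 0.395 to 0.598% and 0.745 to 1.051% of nuclear counts. Of 8 colon epithelium markers, CDX2, KRT8 and KRT18 stood at 15.1, 24.5 and 198 CPM in the controls with DMSO, EPCAM at 3.95 CPM, and VIL1, LGALS4, KRT20 and CDH17 at or near 0. Their summed level was 229 to 259 CPM with sgAAVS1 and 174 to 184 CPM with sgERH in the cytoplasm with DMSO, and 115 to 124 and 124 to 129 CPM in the nucleus. EPCAM was called higher with sgERH in all 4 comparisons of the guides (log2 fold changes of 1.38 to 1.52). CDX2 was called higher in the nucleus with CHX, and KRT18 lower in the cytoplasm with CHX (-1.01). Fibroblast markers summed to at most 4.52 CPM in any library. Leukocyte markers, nearly all of it CD68, summed to 299 to 350 CPM with sgAAVS1 and 365 to 390.2 CPM with sgERH in the cytoplasm with DMSO, and to 59.3 to 94.7 and 157 to 218 CPM in the nucleus, with 3 of the 6 at 0. Of these, CD68 (1.37) and ITGAM (1.67) were called higher with sgERH in the nucleus with DMSO, and ITGAM, at under 0.17 CPM, in the cytoplasm. The part of these differences between the guides in the results below was not tested.

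The 36 genes ranged widely in level before any perturbation. Set per transcript length, as transcripts per M transcripts (TPM), the highest levels in the cytoplasm of sgAAVS1 cells with DMSO were those of SHMT2 (234 ± 9.14 TPM, SD, n = 3) and ATF4 (227 ± 10.5 TPM), whose libraries overlapped. GARS1 (176 ± 3.56 TPM) and MTHFD2 (173 ± 5.79 TPM) came next and overlapped too, and WARS1 (149 ± 4.92 TPM) and SARS1 (135 ± 4.26 TPM) followed without overlap. Several factors and effectors, and the transporter SLC7A11, were low: DDIT3 stood at 27.8 ± 3.90 TPM, CEBPB at 5.44 ± 0.848 TPM, JDP2 at 3.17 ± 0.356 TPM, ATF3 at 1.75 ± 0.201 TPM, SLC7A11 at 1.34 ± 0.222 TPM and CHAC1 at 0.894 ± 0.130 TPM. ALDH1L2, an enzyme, was lower still, at 0.324 ± 0.0743 TPM.

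With DMSO, 5 of the 34 members rose with sgERH in the cytoplasm (ATF3, CEBPB, CHAC1, DDIT3 and SLC7A11) and 1 fell (PHGDH), where 9.30% of all genes tested were called higher and 2.16% lower. In the nucleus with DMSO, 4 of 34 rose (ATF3, CEBPB, JDP2 and SLC7A11) and 0 fell, against 4.77% of all genes called higher and 1.73% lower. With CHX, 4 of 34 rose in the cytoplasm (CEBPB, JDP2, SLC7A1 and SLC7A11; 5.79% of all genes higher, 1.43% lower), and 4 rose in the nucleus (CEBPB, DDIT4, JDP2 and TRIB3; 5.29% higher, 3.68% lower), with 0 lower in either. For the counts of 0 in these 3 comparisons, an unadjusted p under 0.05 was reached by 2, 9 and 2 members at a lower level, and DESeq2 called 0 in each. The higher calls came to 14.7% of the members tested in the cytoplasm with DMSO and to 11.8% in each of the other 3 comparisons.

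The median log2 fold change with sgERH was 0.07 over the members and 0.04 over all genes in the cytoplasm with DMSO, and 0.27 against 0.03 in the nucleus with DMSO. With CHX the medians were 0.07 against 0.02 in the cytoplasm and 0.29 against 0.01 in the nucleus. Of the 34 members, 21 lay above 0 in the cytoplasm and 29 in the nucleus with DMSO. The heat map of the fold changes shows that the members called higher with sgERH in the 4 comparisons were factors, brakes or transporters, and that the 1 called lower was an enzyme.

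**Figure D1:**
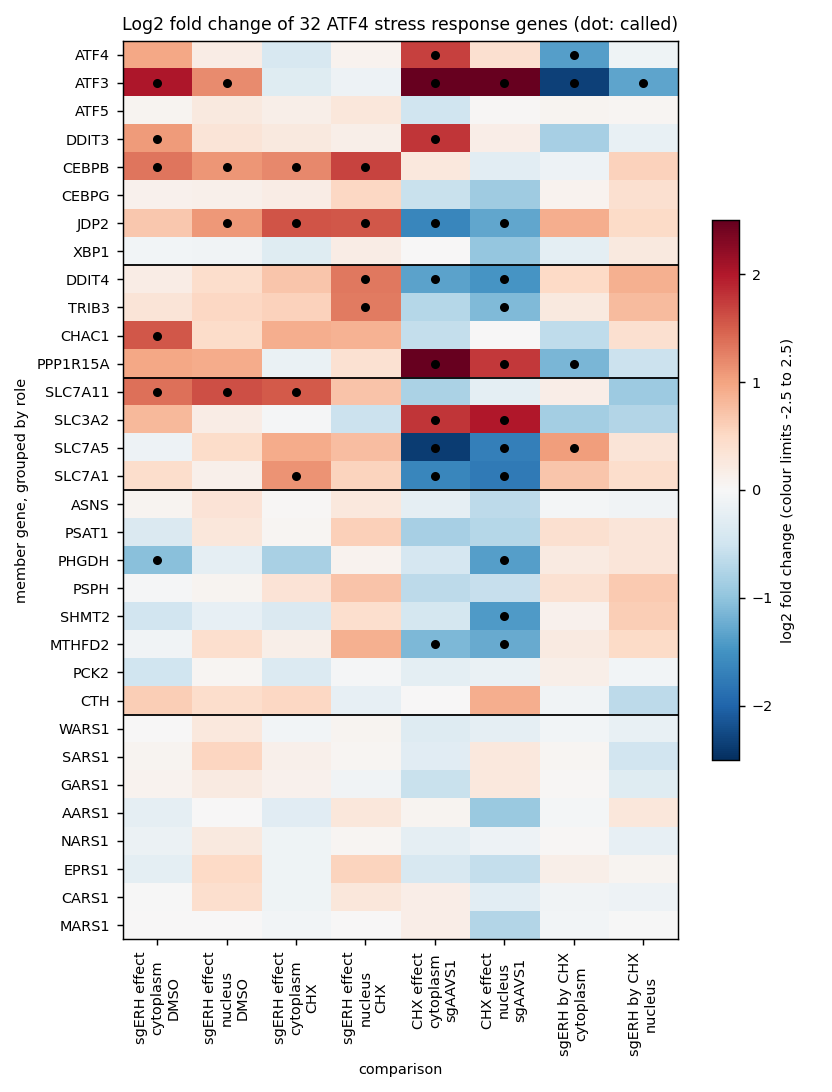
Log2 fold changes of 32 of the 36 genes (rows, grouped by role) in 8 comparisons (columns), with a dot where a gene was called at an adjusted p of at most 0.05 and a log2 fold change of at least 1 in size. With DMSO, dots for sgERH lie on 5 genes with a higher and 1 with a lower level in the cytoplasm and on 4 with a higher level in the nucleus; the 4 genes with few counts (STC2, VLDLR, NUPR1 and ALDH1L2) are left out.

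ATF4 (chr22:39519695-39522683, plus strand, GRCh38) is the hub of the response. In the cytoplasm with DMSO it stood at 241, 221 and 213 CPM with sgAAVS1 and at 449, 433 and 437 CPM with sgERH. The groups lay far apart, and the log2 fold change of 0.97 ± 0.05 (adjusted p = 3.18e-10) came just under the size needed for a call. With DMSO, the nuclear levels were 225, 222 and 229.6 CPM with sgAAVS1 and 261, 253 and 264 CPM with sgERH, a separation without overlap but with a log2 fold change of 0.19 ± 0.08 (adjusted p = 0.0645). The sgERH effect on ATF4 was smaller in the nucleus than in the cytoplasm by 0.76 ± 0.08 on the log2 scale (adjusted p = 1.25e-06), a difference under the size limit.

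ATF3 (chr1:212565334-212620777, plus strand), a stress-induced repressor and activator that ATF4 switches on, had the largest change with sgERH among the members called with DMSO in the cytoplasm. It stood there at 3.06, 2.28 and 2.65 CPM with sgAAVS1 and at 11.6, 11.5 and 9.10 CPM with sgERH (log2 fold change 2.02 ± 0.11, adjusted p = 3.47e-10). In nuclei with DMSO it stood at 3.05, 4.05 and 3.31 CPM with sgAAVS1 and at 9.85, 5.99 and 7.996 CPM with sgERH (1.18 ± 0.16, adjusted p = 2.46e-05). All 6 sgERH libraries lay above all sgAAVS1 libraries of their fraction, and the effect was nominally smaller in the nucleus, by 0.82 ± 0.27 (adjusted p = 0.0266), a difference under the size limit.

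DDIT3 (chr12:57516588-57521737, minus strand), the CHOP factor that turns prolonged stress towards cell death, rose from 16.4, 13.6 and 12.1 CPM to 30.9, 31.4 and 25.7 CPM in the cytoplasm with DMSO (1.07 ± 0.10, adjusted p = 1.71e-07). The groups did not overlap, but the call was near the limit: the log2 fold change was 0.99 with a length offset and 1.00, just below the limit, without sgAAVS1 replicate 3. In the nucleus DDIT3 went from 33.3, 33.8 and 29.1 CPM to 42.5, 35.5 and 42.6 CPM (0.32 ± 0.11, adjusted p = 0.0365), which was not called. DDIT3 shares 982 bases with MARS1 on the other strand, and whether the counting used the strand is not stated in the sources used here.

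CEBPB, a C/EBP partner of ATF4, was called in all 4 comparisons of the guides. Cytoplasmic CEBPB with DMSO rose from 6.93, 9.12 and 7.42 CPM to 18.3, 21.2 and 19.9 CPM (1.34 ± 0.10, adjusted p = 7.46e-09), and with CHX from 9.26, 9.52 and 9.80 CPM to 22.9, 21.8 and 21.2 CPM (1.21 ± 0.09, adjusted p = 3.35e-08). The cytoplasmic effects with and without CHX differed by -0.13 ± 0.13 (adjusted p = 0.518). In the nucleus with DMSO the levels were 1.68, 2.92 and 2.79 CPM with sgAAVS1 and 7.53, 5.03 and 3.50 CPM with sgERH (1.10 ± 0.28, adjusted p = 0.0054), and with CHX 2.13, 1.75 and 2.22 CPM against 7.63, 6.79 and 5.28 CPM (1.68 ± 0.29, adjusted p = 0.000136). No group overlapped its control, but the nuclear call with DMSO was lost without sgAAVS1 replicate 1 (0.88, adjusted p = 0.0364) or without sgERH replicate 1 (0.78, adjusted p = 0.0472). CEBPB has an annotated antisense gene.

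JDP2, which binds the same kind of site as ATF3 and acts mostly as a repressor, was called higher in 3 of the 4 comparisons of the guides. Nuclear JDP2 with DMSO rose from 1.80, 1.84 and 2.17 CPM to 4.65, 3.94 and 3.86 CPM (1.08 ± 0.30, adjusted p = 0.00887), a log2 fold change of 0.99 without sgERH replicate 1. With CHX it rose from 1.34, 1.51 and 1.09 CPM to 3.90, 4.38 and 3.26 CPM in the cytoplasm (1.57 ± 0.17, adjusted p = 1.42e-06) and from 0.413, 1.12 and 0.845 CPM to 2.33, 2.65 and 2.05 CPM in the nucleus (1.56 ± 0.32, adjusted p = 0.000753). Every sgERH library lay above every sgAAVS1 library of its setting, the cytoplasm with DMSO included, where JDP2 went from 4.66, 3.86 and 3.43 CPM to 6.79, 6.15 and 6.00 CPM (0.67 ± 0.16, adjusted p = 0.0018) and was not called.

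The other 4 factors were not called in any comparison. ATF5, itself controlled through upstream reading frames, had mean levels of 54.9 and 57.6 CPM in sgAAVS1 and sgERH cytoplasm with DMSO (0.07 ± 0.08, adjusted p = 0.477). CEBPG, a dimer partner of ATF4, had 79.0 and 84.3 CPM (0.10 ± 0.06, adjusted p = 0.155), and XBP1, the factor of the IRE1 branch of the unfolded protein response, had 68.0 and 64.6 CPM (-0.07 ± 0.06, adjusted p = 0.362). With DMSO, 3 of the 9 factors were thus called higher in the cytoplasm (9.30% of all genes) and 3 of 8 in the nucleus (4.77% of all genes). The medians over the factors were 0.97 and 0.28.

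**Figure D2:**
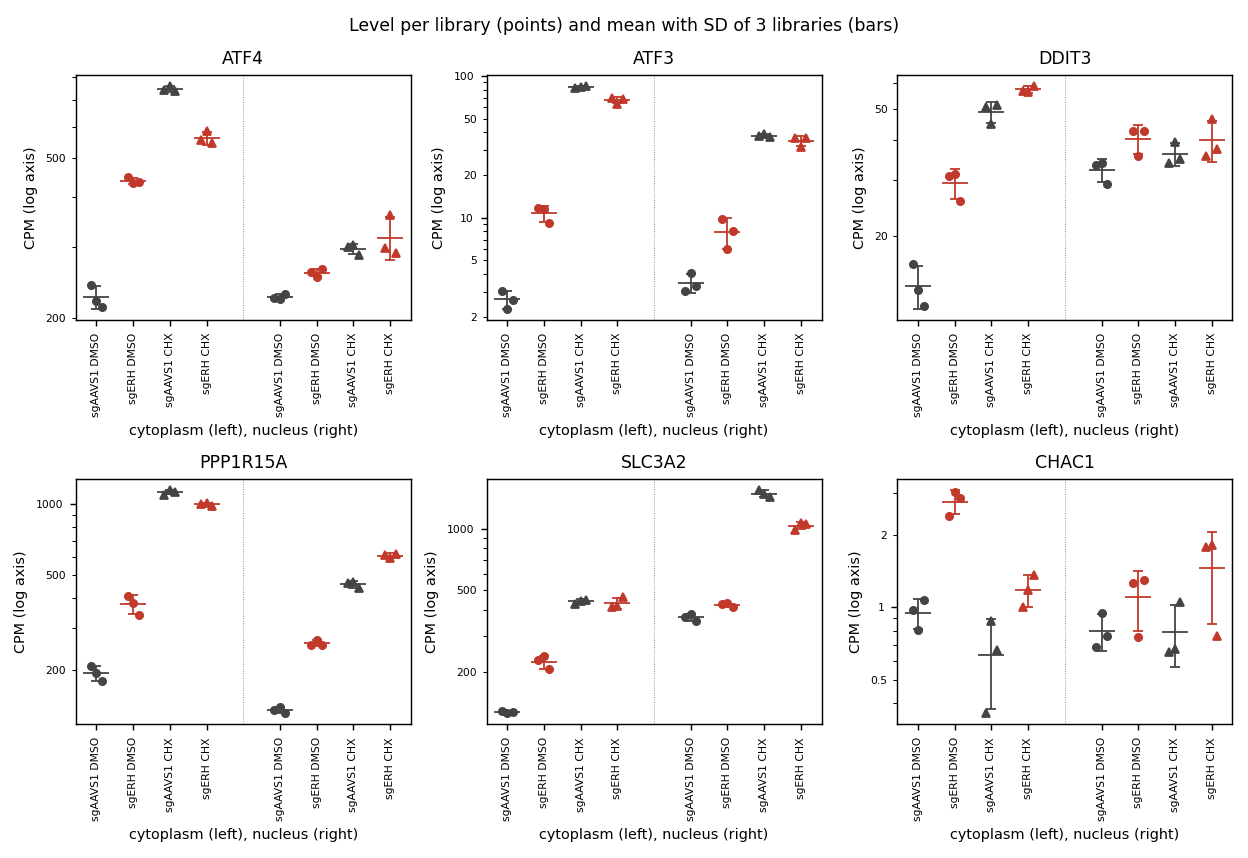
Levels per library (CPM, log axis) of ATF4, ATF3, DDIT3, PPP1R15A, SLC3A2 and CHAC1 in the 8 groups, with sgAAVS1 in grey, sgERH in red, DMSO as circles and CHX as triangles, and bars for the mean ± SD of 3 libraries. In the cytoplasm ATF4 lies at 213 to 241 CPM with sgAAVS1 and 433 to 449 CPM with sgERH with DMSO, and this order is turned around with CHX (737 to 759 and 546 to 586 CPM).

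The letters of the composite C/EBP-ATF site, described above, were looked for in the promoters. The windows were those of the RefSeq table (GRCh38.p14), 250 bases before and 50 after each start site, and 31 of the 36 members had at least 1 (50 windows); SHMT2, PSPH, SLC7A11, ALDH1L2 and NUPR1 had none there. The letters TGATGNAA, read on either strand (TTNCATCA on the other), were found in 12 of the 31 members (38.7%), against 4.46% of 27305 gene symbols and 3.62% of 35116 windows in the whole table. Below are the sites of 5 members that were called in a comparison and, for contrast, of CEBPG and ASNS, which were not. The site is in capitals, each stretch runs 5′ to 3′ along the gene's own strand, and in CHAC1 and SLC3A2 the site reads on the other strand.
ATF3: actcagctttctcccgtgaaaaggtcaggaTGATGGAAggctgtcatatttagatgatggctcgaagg
JDP2: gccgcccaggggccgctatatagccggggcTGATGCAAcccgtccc
CHAC1: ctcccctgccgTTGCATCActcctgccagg
SLC3A2: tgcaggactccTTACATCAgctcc
SLC7A1: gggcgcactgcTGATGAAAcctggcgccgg
CEBPG: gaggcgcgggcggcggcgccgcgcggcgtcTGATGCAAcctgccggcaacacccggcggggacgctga
ASNS: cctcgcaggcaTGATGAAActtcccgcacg

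These stretches lie at chr1:212565186-212565253 (ATF3, plus strand), chr14:75427976-75428021 (JDP2, plus), chr15:40953251-40953280 (CHAC1, plus), chr11:62881725-62881748 (SLC3A2, plus), chr13:29595663-29595692 (SLC7A1, minus), chr19:33374041-33374108 (CEBPG, plus) and chr7:97872458-97872487 (ASNS, minus). The stretches of ATF3, JDP2 and CEBPG overlap no annotated exon of their strand, and the others do. The sites of CHAC1, ATF3, ASNS, CEBPG and JDP2 begin 209, 191, 68, 42 and 16 bases before the start site of their window. Those of SLC7A1 and SLC3A2 begin 7 and 37 bases after it. Of the 12 members with these letters, 4 were called higher with sgERH in at least 1 comparison (ATF3, JDP2, CHAC1 and SLC7A1), and of the 19 with a window and without them, 4 were as well (DDIT3, CEBPB, DDIT4 and TRIB3). Members with and without the letters were thus called. In each single comparison of the guides 4.77 to 9.30% of all genes were called higher, and the share over at least 1 comparison was not taken. The list was drawn up from known ATF4 partners and targets, so its share with the letters is not a result of these data. Sites outside the windows were not searched.

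Among the brakes and effectors, 1 of 4 tested was called in the cytoplasm with DMSO, where 9.30% of all genes were called higher. CHAC1, an enzyme that breaks down glutathione, rose from 0.973, 0.803 and 1.07 CPM to 2.40, 3.02 and 2.86 CPM (1.55 ± 0.27, adjusted p = 0.000113). Its nuclear levels with DMSO were 0.684, 0.952 and 0.759 CPM with sgAAVS1 and 1.27, 0.755 and 1.30 CPM with sgERH, and these overlapped (0.46 ± 0.45, adjusted p = 0.463). Its low level makes the nuclear comparison wide, and the difference between fractions of -1.07 ± 0.43 did not pass (adjusted p = 0.0656).

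PPP1R15A, the GADD34 brake on eIF2alpha phosphorylation, stood at 207, 194 and 179 CPM with sgAAVS1 and at 411, 383 and 341.5 CPM with sgERH in the cytoplasm with DMSO (0.97 ± 0.06, adjusted p = 3.16e-09). In the nucleus it stood at 136, 139 and 131 CPM against 255, 267 and 254 CPM (0.92 ± 0.06, adjusted p = 9.62e-09). The sgERH libraries were clear of the controls in both fractions and both effects came under the size limit, and unlike for ATF4 the fractions differed by no more than -0.03 in the fit (adjusted p = 0.829).

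DDIT4 (REDD1), which restrains mTORC1, and TRIB3, a pseudokinase that binds ATF4 and DDIT3, were called in the nucleus with CHX. DDIT4 rose there from 2.13, 2.53 and 1.66 CPM to 5.08, 5.76 and 5.04 CPM (1.32 ± 0.20, adjusted p = 3.7e-05). TRIB3 rose from 7.98, 10.8 and 8.24 CPM to 23.5, 20.9 and 22.8 CPM (1.30 ± 0.12, adjusted p = 2.19e-07). With DMSO, TRIB3 also separated the guides, with 67.8, 62.1 and 60.9 CPM against 83.4, 78.8 and 77.1 CPM in the cytoplasm (0.33 ± 0.06, adjusted p = 0.000148), but by less than the size limit.

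SLC7A11 (chr4:138164097-138242349, minus strand), the cystine importer that feeds glutathione synthesis, was the transporter called with sgERH in both fractions. Cytoplasmic SLC7A11 with DMSO rose from 10.3, 13.3 and 13.3 CPM to 30.2, 35.2 and 29.4 CPM (1.37 ± 0.12, adjusted p = 5.67e-08), and in the nucleus from 18.9, 19.04 and 18.4 CPM to 58.5, 61.0 and 54.4 CPM (1.62 ± 0.10, adjusted p = 5.58e-09). With CHX the cytoplasmic effect was again a call, from 7.06, 6.63 and 7.62 CPM to 23.4, 17.4 and 20.6 CPM (1.53 ± 0.12, adjusted p = 4.08e-08). Nuclear levels with CHX were 16.8, 13.2 and 17.01 CPM against 24.8, 24.4 and 28.7 CPM (0.72 ± 0.10, adjusted p = 2.64e-05), a nuclear effect that was lower by 0.90 ± 0.15 with CHX than with DMSO (adjusted p = 0.000378), under the size limit. SLC7A11 also has an annotated antisense gene.

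SLC3A2 encodes the heavy chain that carries SLC7A11 and SLC7A5 to the membrane. With DMSO it stood at 128, 125.1 and 127 CPM with sgAAVS1 and at 227, 237 and 205 CPM with sgERH in the cytoplasm (0.82 ± 0.06, adjusted p = 7.63e-09), clear of the controls and under the size limit. In the nucleus it stood at 368, 382 and 355 CPM against 427, 432 and 415 CPM (0.19 ± 0.06, adjusted p = 0.0187).

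SLC7A1, the importer of cationic amino acids, rose with sgERH in the cytoplasm with CHX, from 85.0, 81.2 and 87.7 CPM to 193, 167 and 196 CPM (1.13 ± 0.06, adjusted p = 1.28e-09). With DMSO it stood at 253, 262 and 259.5 CPM against 337, 335 and 368 CPM (0.43 ± 0.06, adjusted p = 1.85e-05). The guides did not overlap in either treatment. SLC7A5, the leucine exchanger LAT1, stood at 201, 202 and 217 CPM against 189, 177 and 201 CPM in the cytoplasm with DMSO, where the groups overlapped (-0.12 ± 0.05, adjusted p = 0.0571). In the nucleus with DMSO the guides were apart, at 104, 112 and 106 CPM against 131, 148 and 164 CPM (0.45 ± 0.10, adjusted p = 0.00214), under the size limit.

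**Figure D3:**
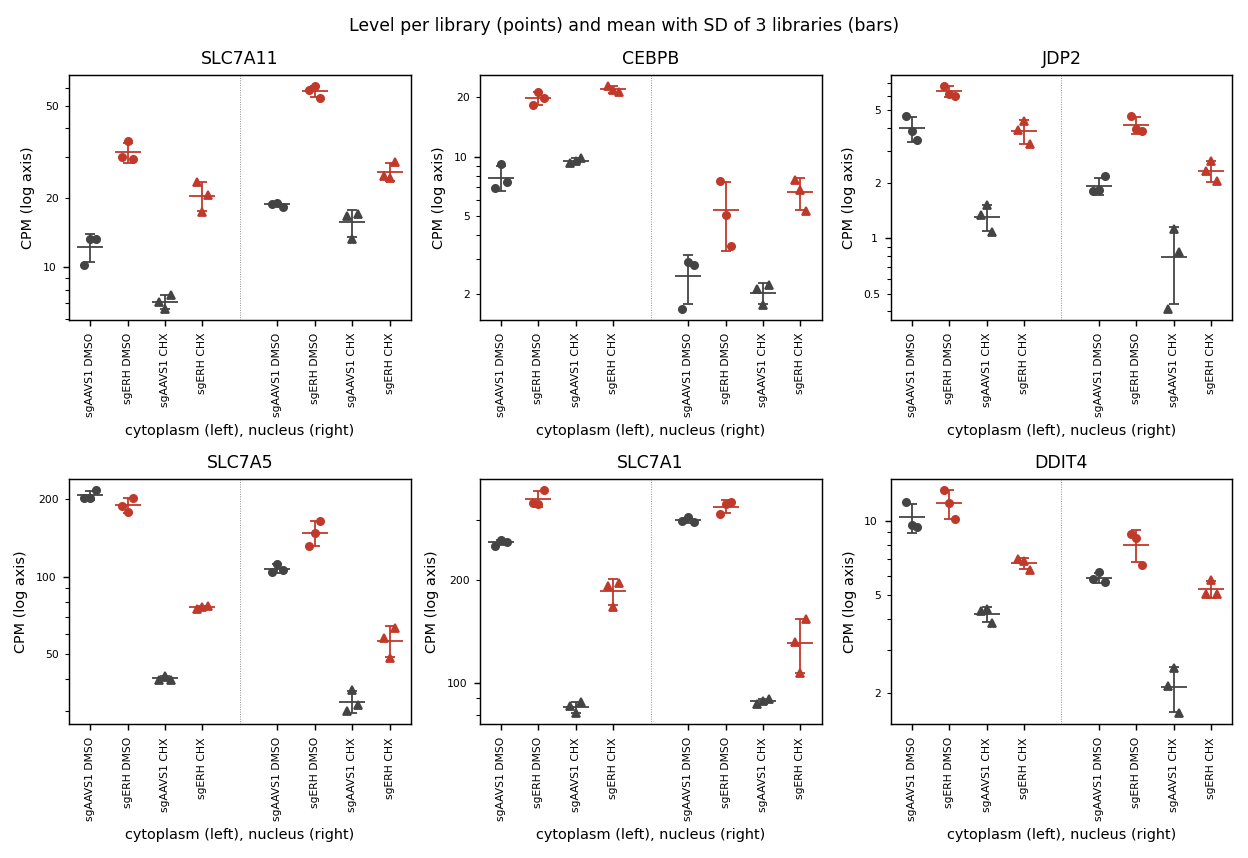
Levels per library (CPM, log axis) of SLC7A11, CEBPB, JDP2, SLC7A5, SLC7A1 and DDIT4 in the 8 groups, with the colours, symbols and mean ± SD bars as for the stress factors. SLC7A11 lies higher with sgERH in every setting, whereas cytoplasmic SLC7A5 overlaps between guides with DMSO (177 to 217 CPM) and separates with CHX (39.8 to 41.2 and 75.1 to 77.1 CPM).

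Of the 9 enzymes, 0 rose and 1 fell in the cytoplasm with DMSO, against 9.30% and 2.16% of all genes. The median log2 fold change over the 9 enzymes was -0.37. At an unadjusted p under 0.05, 1 was higher, and DESeq2 called 0 higher. PHGDH (chr1:119648411-119744218, plus strand), which opens serine synthesis, fell from 94.1, 87.0 and 96.3 CPM to 43.0, 42.4 and 49.0 CPM (-1.04 ± 0.08, adjusted p = 1.95e-08). All sgERH libraries lay below all controls, though the log2 fold change was -0.99 with a length offset and -0.98 without sgAAVS1 replicate 3. In the nucleus it stood at 50.6, 49.7 and 53.5 CPM against 45.1, 42.1 and 44.5 CPM (-0.23, adjusted p = 0.0828), and the fractions differed by 0.82 ± 0.10 (adjusted p = 8.27e-06), under the size limit.

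The other enzymes were not called with sgERH in the cytoplasm with DMSO. SHMT2, the mitochondrial serine hydroxymethyltransferase, stood at 370.2, 352 and 366 CPM against 262, 258 and 263 CPM (-0.47 ± 0.05, adjusted p = 4.43e-07), PSAT1, the serine pathway aminotransferase, had mean levels of 107 and 82.8 CPM (-0.37 ± 0.06, adjusted p = 3.86e-05), and PCK2, the mitochondrial PEP carboxykinase, 31.1 and 22.1 CPM (-0.49 ± 0.06, adjusted p = 4.12e-06). PSPH, which completes serine synthesis, overlapped between the guides at 13.4 and 13.0 CPM (-0.03 ± 0.08, adjusted p = 0.766), and MTHFD2, a mitochondrial folate enzyme, had 293 and 276 CPM (-0.08 ± 0.05, adjusted p = 0.147). ASNS, the asparagine synthetase that is widely used as an ATF4 readout, overlapped between the guides at 74.7 and 77.9 CPM (0.07 ± 0.06, adjusted p = 0.343). CTH, which makes cysteine, had a value of the other sign, with 5.57 and 8.46 CPM (0.61 ± 0.13, adjusted p = 0.00066). Over the 9 enzymes the nuclear median with DMSO was 0.07, with 0 called (4.77% of all genes were called higher and 1.73% lower). An unadjusted p under 0.05 was reached there by 3 enzymes at a higher and 2 at a lower level, and DESeq2 called 0.

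The 8 tRNA synthetases, which charge amino acids onto tRNAs and are classical ATF4 targets, had the narrowest range of the roles in the cytoplasm. Their cytoplasmic log2 fold changes with DMSO lay between -0.24 (EPRS1) and 0.08 (GARS1), with a median of -0.01 and 0 called. Of all genes, 9.30% were called higher and 2.16% lower. At an unadjusted p under 0.05, 0 of the 8 synthetases were higher and 3 lower, and DESeq2 called 0. In the nucleus their fold changes lay between 0.00 and 0.53 (SARS1), with a median of 0.25 and 0 called, by DESeq2 as well. Of all genes, 4.77% were called higher there and 1.73% lower. At a higher level, 6 of 8 passed an unadjusted p under 0.05 and the adjusted p alone, among them SARS1 with mean levels of 80.6 and 118 CPM (0.53 ± 0.09, adjusted p = 0.000203) and EPRS1 with 131 and 184.5 CPM (0.49 ± 0.07, adjusted p = 7.29e-05). The 12 cytosolic tRNA synthetases outside the list had a median of -0.36 in the cytoplasm with DMSO (-0.67 to -0.14), where 0 of 12 lay above 0, and of -0.12 in the nucleus.

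The difference of the sgERH effect between the fractions, nucleus minus cytoplasm with DMSO, was fitted on the DMSO libraries of both. Of 32 members tested, 0 were called higher and 0 lower, where 1.78% of all genes were called higher and 3.95% lower. At an unadjusted p under 0.05, 13 members were higher and 6 lower, and DESeq2 called 0 in either direction. By the adjusted p alone 13 were higher and 5 lower, and the median was 0.22 over the members and -0.01 over all genes. The lower ones included ATF3 (-0.82), ATF4 (-0.76), DDIT3 (-0.73 ± 0.16, adjusted p = 0.00169) and SLC3A2 (-0.61 ± 0.08, adjusted p = 1.43e-05). The higher ones included PHGDH (0.82), EPRS1 (0.75 ± 0.08, adjusted p = 2.96e-06), PSAT1 (0.67 ± 0.11, adjusted p = 0.000195) and SLC7A5 (0.59 ± 0.11, adjusted p = 0.000389). All 8 synthetases lay above 0 (median 0.34, 0.02 to 0.75), as did 7 of 8 enzymes (median 0.41). Of the 12 cytosolic tRNA synthetases outside the list, 10 lay above 0 as well (median 0.25, -0.15 to 0.9).

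CHX alone moved genes of the list in both directions. In the cytoplasm of sgAAVS1 cells, 5 of 34 members rose with CHX (ATF3, ATF4, DDIT3, PPP1R15A and SLC3A2) and 5 fell (DDIT4, JDP2, MTHFD2, SLC7A1 and SLC7A5), against 13.6% of all genes called higher and 6.31% lower. In the nucleus 3 rose (ATF3, PPP1R15A and SLC3A2) and 8 fell (DDIT4, JDP2, MTHFD2, PHGDH, SHMT2, SLC7A1, SLC7A5 and TRIB3), against 14.4% and 10.8%. The median was -0.37 over the members and -0.02 over all genes in the cytoplasm and -0.26 against 0.01 in the nucleus. This comparison shares its sgAAVS1 libraries with DMSO with the comparison of the guides, so the values of both are only set side by side.

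The rises with CHX were large for the stress factors. Cytoplasmic ATF3 went from 3.06, 2.28 and 2.65 CPM to 82.0, 82.9 and 85.2 CPM in sgAAVS1 cells (4.95 ± 0.11, adjusted p = 1.94e-15), where sgERH with DMSO had given 9.10 to 11.6 CPM. PPP1R15A went to 1095, 1141 and 1127 CPM (2.52 ± 0.07, adjusted p = 1.84e-14), ATF4 to 739, 759 and 737 CPM (1.71 ± 0.05, adjusted p = 9.06e-14), and DDIT3 to 50.5, 44.6 and 51.2 CPM (1.78 ± 0.10, adjusted p = 1.17e-10). SLC3A2 went to 429, 445 and 449 CPM in the cytoplasm (1.78 ± 0.06, adjusted p = 2.45e-13) and to 1543, 1470 and 1430 CPM in the nucleus (2.01 ± 0.06, adjusted p = 5.57e-14). None of these groups overlapped its control.

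Among the falls with CHX were those of SLC7A5 and SLC7A1. SLC7A5 fell to 39.9, 41.2 and 39.8 CPM in the cytoplasm (-2.38 ± 0.06, adjusted p = 4.18e-15) and from 104, 112 and 106 CPM to 30.2, 36.4 and 31.8 CPM in the nucleus (-1.70 ± 0.11, adjusted p = 2.68e-10). SLC7A1 fell by 1.63 ± 0.06 in the cytoplasm (adjusted p = 1.61e-12) and by 1.76 ± 0.10 in the nucleus (adjusted p = 5.31e-11). CHX thus left SLC3A2 higher and its partner SLC7A5 lower in the same libraries. Nuclear SHMT2 fell from 228, 230.3 and 237 CPM to 87.0, 88.7 and 83.5 CPM (-1.42 ± 0.07, adjusted p = 1.95e-11), and PHGDH fell by 1.38 ± 0.11 (adjusted p = 3.26e-09). MTHFD2 fell from 286.6, 299.9 and 293 CPM to 140.3, 137.7 and 132 CPM in the cytoplasm (-1.12 ± 0.05, adjusted p = 5.54e-12) and from 58.4, 61.5 and 52.2 CPM to 23.01, 24.4 and 24.3 CPM in the nucleus (-1.26 ± 0.09, adjusted p = 1.4e-09). DDIT4 fell from 12.02, 9.69 and 9.46 CPM to 4.31, 4.40 and 3.87 CPM in the cytoplasm (-1.33 ± 0.12, adjusted p = 5.48e-08). In all of these the groups were apart. The nuclear calls of JDP2, TRIB3 and MTHFD2 were near the limit: without CHX replicate 1 the log2 fold change was -0.94 for JDP2 and came just short of the limit for TRIB3, and it was -0.97 for MTHFD2 with a length offset.

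The sgERH effect was then compared between CHX and DMSO, as the effect with CHX minus that with DMSO. In the cytoplasm 1 of 34 members was called higher (SLC7A5) and 3 lower (ATF3, ATF4 and PPP1R15A), against 1.02% and 2.61% of all genes, and in the nucleus 0 higher and 1 lower (ATF3), against 1.29% and 2.33%. For the count of 0, 9 members were higher at an unadjusted p under 0.05, and DESeq2 called 0. The medians over the members, 0.04 in the cytoplasm and 0.05 in the nucleus, were near those over all genes, 0.03 and -0.02.

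ATF4 turned around. With CHX the cytoplasmic levels were 739, 759 and 737 CPM with sgAAVS1 and 556, 586 and 546 CPM with sgERH, so that the sgERH libraries lay below the controls (-0.40 ± 0.05, adjusted p = 7.07e-06), where they had lain above them with DMSO. The difference was -1.37 ± 0.07 (adjusted p = 1.17e-08). ATF3 stood at 82.0, 82.9 and 85.2 CPM against 69.6, 63.5 and 68.3 CPM with CHX (-0.31 ± 0.08, adjusted p = 0.00462), a difference from its effect with DMSO of -2.33 ± 0.14 (adjusted p = 1.39e-08). PPP1R15A stood at 1095, 1141 and 1127 CPM against 998, 1008 and 977 CPM (-0.17 ± 0.06, adjusted p = 0.0345), a difference of -1.14 ± 0.09 (adjusted p = 2.1e-07).

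In the nucleus with CHX, ATF3 stood at 37.7, 38.9 and 36.8 CPM against 36.4, 31.5 and 36.7 CPM (-0.13 ± 0.14, adjusted p = 0.481), groups that nearly touched and did not pass the test, and the difference from DMSO was -1.31 ± 0.21 (adjusted p = 0.000413). PPP1R15A remained apart there, at 464, 471 and 442 CPM against 608, 589 and 618 CPM (0.39 ± 0.06, adjusted p = 5.73e-05). SLC3A2 lay below its controls, at 1543, 1470 and 1430 CPM against 984, 1061 and 1050 CPM (-0.53 ± 0.06, adjusted p = 1.91e-06), and its nuclear difference of -0.73 ± 0.09 (adjusted p = 2.48e-05) came under the size limit.

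SLC7A5 went the other way. With CHX the cytoplasmic levels were 39.9, 41.2 and 39.8 CPM with sgAAVS1 and 75.1, 76.0 and 77.1 CPM with sgERH (0.92 ± 0.05, adjusted p = 2.00e-09), apart by more than the spread although not called, and the difference from DMSO was 1.04 ± 0.08 (adjusted p = 1.06e-07). The log2 difference was 0.97 without sgAAVS1 DMSO replicate 3. The differences of SLC7A1 (0.70 ± 0.09, adjusted p = 2.41e-05) and JDP2 (0.90 ± 0.23, adjusted p = 0.00929) had the same sign and came under the size limit. Cytoplasmic DDIT3 (-0.83 ± 0.14, adjusted p = 0.000317) and SLC3A2 (-0.85 ± 0.08, adjusted p = 1.73e-06) had differences of the other sign under the size limit, and for SLC7A11 the difference was 0.16 (adjusted p = 0.531).

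**Figure D4:**
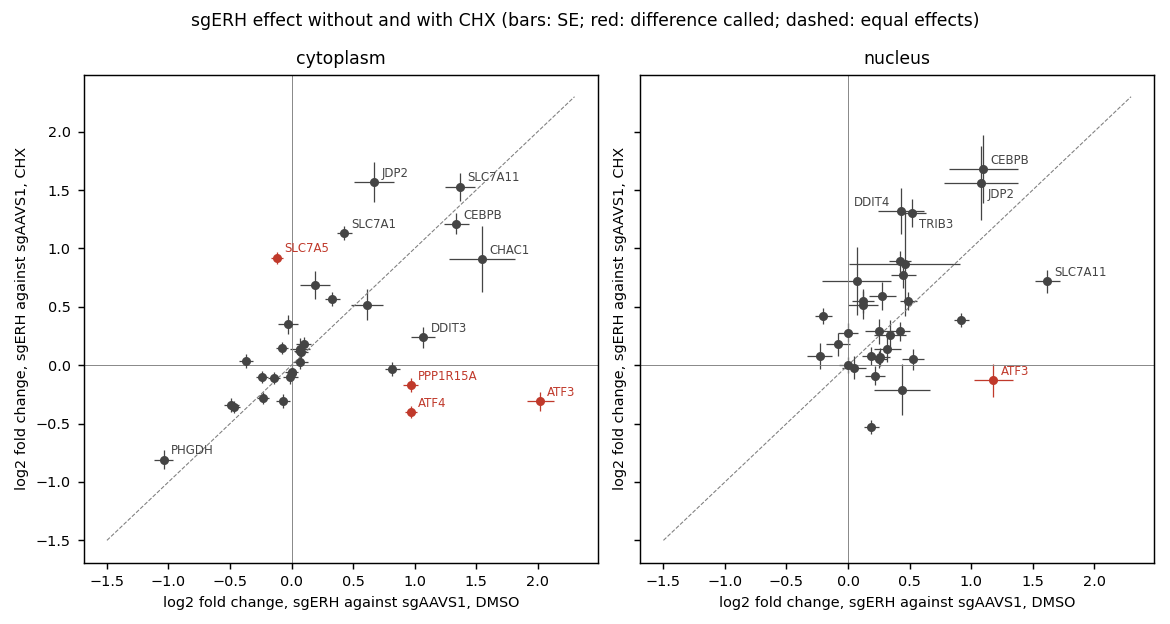
The sgERH log2 fold change with DMSO (x axis) and with CHX (y axis) of 32 members, in the cytoplasm and in the nucleus, with SE bars, a dashed line of equal effects, and red for members whose difference was called. STC2, VLDLR, NUPR1 and ALDH1L2, which had few counts, are left out. In the cytoplasm ATF3 (2.02 and -0.31), ATF4 (0.97 and -0.40) and PPP1R15A (0.97 and -0.17) lie below the line and SLC7A5 (-0.12 and 0.92) above it; in the nucleus only ATF3 is red.

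Genes of the same pathways outside the list were read in the same fits. The shares of all genes called in each comparison, given above, apply to their counts too. Of 16 other ATF4 targets tested in the cytoplasm with DMSO, 2 rose with sgERH (12.5%, against 9.30% of all genes) and 0 fell (median -0.02); at an unadjusted p under 0.05, 6 were lower, and DESeq2 called 0 lower. SESN2, a stress-induced inhibitor of mTORC1, rose from 39.6, 39.9 and 42.2 CPM to 88.5, 79.8 and 87.7 CPM (1.08 ± 0.06, adjusted p = 6.78e-10), and KLHL24, a ubiquitin ligase adaptor, from a mean of 10.9 to 38.9 CPM (1.85 ± 0.07, adjusted p = 1.32e-11). KLHL24 also rose in the nucleus with DMSO, from 12.02 to 31.6 CPM (1.38 ± 0.12, adjusted p = 1.56e-07), the only one of 15 called there. GDF15, a secreted stress cytokine, was the only one of them called for the sgERH effect with CHX, from 1.52 to 3.15 CPM in the cytoplasm (1.06 ± 0.21, adjusted p = 0.00052) and from 1.72 to 4.15 CPM in the nucleus (1.26 ± 0.25, adjusted p = 0.000486). EIF4EBP1, a translation repressor, was called for the difference between fractions (1.04 ± 0.15, adjusted p = 4.38e-05). CHX itself lowered more of these targets in sgAAVS1 nuclei, where 7 of 15 fell (46.7%, against 10.8% of all genes) with a median of -0.91, among them PYCR1, which makes proline, from a mean of 84.3 to 16.9 CPM (-2.32 ± 0.11, adjusted p = 9.93e-12), and VEGFA, an angiogenic growth factor, from 136.2 to 36.8 CPM (-1.88 ± 0.08, adjusted p = 1.15e-12). ALDH18A1, ERO1A, GPT2, MTHFD1L and SLC1A5 were the others that fell. In the cytoplasm 1 of 16 fell with CHX, the oxidase ERO1A of the endoplasmic reticulum, from 138 to 64.6 CPM (-1.11 ± 0.07, adjusted p = 6.06e-10), and 0 rose in either fraction, by edgeR or by DESeq2, with 3 higher at an unadjusted p under 0.05 in each.

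The eIF2alpha kinases, their partners and phosphatases gave 0 calls for the sgERH effect with DMSO in either fraction, by edgeR or by DESeq2 (medians of -0.11 and -0.09 over 16 genes). At an unadjusted p under 0.05, 4 were higher and 7 lower in the cytoplasm, and 2 higher and 6 lower in the nucleus. GCN1, which activates the kinase GCN2 on stalled ribosomes, was called for the sgERH effect with CHX, at 54.2, 56.1 and 54.9 CPM with sgAAVS1 and 107, 106 and 136 CPM with sgERH in the cytoplasm (1.08 ± 0.09, adjusted p = 5.04e-08). With DMSO it had stood at 357, 340.2 and 356 CPM in the controls and 233, 211 and 259 CPM with sgERH, so that its effect also reversed, by 1.66 ± 0.12 (adjusted p = 1.17e-07). EIF2AK3 (PERK), the kinase of the endoplasmic reticulum, rose with CHX in sgAAVS1 nuclei from 22.3 to 76.3 CPM (1.78 ± 0.10, adjusted p = 9.31e-11), and its nuclear sgERH effect was lower with CHX by 1.04 ± 0.14 (adjusted p = 8.78e-05). CHX alone also raised EIF2AK3 and lowered GCN1 in the cytoplasm of sgAAVS1 cells, and raised OMA1 and lowered GCN1 and EIF2AK2 in the nucleus.

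The 18 genes of the ATF6 and IRE1 branches had median sgERH effects of 0.12 in the cytoplasm and 0.25 in the nucleus with DMSO, and 0 were called in either, by edgeR or by DESeq2. At an unadjusted p under 0.05, 9 were higher in each fraction, and 5 and 4 lower. For the sgERH effect with CHX, 1 was called in the nucleus, SDF2L1, a chaperone partner of the endoplasmic reticulum, which rose from 7.08, 8.57 and 8.80 CPM to 15.4, 19.8 and 14.4 CPM (1.01 ± 0.15, adjusted p = 3.76e-05). For CHX alone, in sgAAVS1 cells, 1 of the 18 was called higher and 2 lower in each fraction. Of all genes, 13.6% were called higher and 6.31% lower in the cytoplasm, and 14.4% and 10.8% in the nucleus. ERN1, the sensor IRE1 itself, rose in both fractions (1.38 ± 0.06 in the cytoplasm, adjusted p = 9.84e-12). DNAJB9 fell in both, DNAJC3 in the cytoplasm and HSP90B1 in the nucleus.

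The transcript estimates split the members by form. In the cytoplasm with DMSO, 21 of 242 member transcripts rose with sgERH and 2 fell, in 15 genes, where 3.87% of all transcripts were called higher and 2.01% lower. In the nucleus 9 of 239 rose and 0 fell, in 8 genes, where 1.85% were called higher and 1.03% lower; at an unadjusted p under 0.05, 6 were lower, and DESeq2 called 0 lower. The medians were 0.29 against 0.07 over all transcripts in the cytoplasm and 0.26 against 0.03 in the nucleus. In the nucleus, 8 of the 9 called were protein-coding forms, and the median was 0.60 over the 103 protein-coding forms tested, 0.05 over 70 retained-intron forms and 0.00 over 49 forms annotated for nonsense-mediated decay. Medians by type were not taken over all genes, so whether this split is particular to the members was not tested. Reads of overlapping forms are shared out by an estimate, so a value of 1 transcript is less certain than that of its gene.

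ATF4-206, the canonical ATF4 transcript, was called although the gene was not. In the cytoplasm with DMSO it rose from 215, 199 and 194 CPM to 417, 403 and 403 CPM (1.01 ± 0.05, adjusted p = 1.75e-06). In the nucleus it stood at 95.2, 101 and 96.4 CPM against 163, 159.9 and 167 CPM (0.74 ± 0.12, adjusted p = 0.00571), where the sum over all ATF4 transcripts had a log2 fold change of 0.19. The nuclear difference between the guides was thus larger for the canonical form than for the gene.

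In the nucleus with DMSO, the canonical forms that were called had larger values than their genes. A call needed a log2 fold change of at least 1, so a called form of a gene under that limit had to lie above its gene. DDIT3-201 rose from 9.11, 10.2 and 9.31 CPM to 22.2, 16.7 and 19.98 CPM (1.04 ± 0.22, adjusted p = 0.0177), beside a gene value of 0.32. PPP1R15A-201 rose from 51.1, 55.4 and 47.1 CPM to 134, 144 and 135 CPM (1.42 ± 0.09, adjusted p = 4e-05), beside a gene value of 0.92, and its share of the gene's nuclear CPM was 39.8 ± 1.86% with sgAAVS1 and 52.9 ± 0.450% with sgERH (SD, n = 3). AARS1-201 rose from 20.2, 16.0 and 25.6 CPM to 38.4, 47.1 and 43.2 CPM (1.06 ± 0.19, adjusted p = 0.00869), beside a gene value of 0.00. In the cytoplasm AARS1-201 was lower with sgERH (-0.38 ± 0.05, adjusted p = 0.00106), under the size limit, while the other canonical forms called in the nucleus were higher there too. For ATF3-202 the nuclear rise was 1.76 ± 0.17 (adjusted p = 0.000331) beside a gene value of 1.18, and for SLC7A11-201 it was 1.71 ± 0.12 (adjusted p = 6.02e-05) beside 1.62. Canonical forms that were not called could lie below their gene, as CHAC1-203 (0.26 ± 0.69, beside 0.46) and JDP2-208 (-1.34 ± 2.31, beside 1.08) did with wide errors.

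Nuclear shares of forms without a full product are given for 3 genes, chosen after their values were seen, and were lower with sgERH. Retained-intron forms took 57.2 ± 3.85% of XBP1 with sgAAVS1 and 36.9 ± 2.47% with sgERH with DMSO, and 71.4 ± 2.02% and 59.6 ± 1.92% of SLC3A2. Forms annotated for nonsense-mediated decay took 36.7 ± 5.70% of ASNS with sgAAVS1 and 13.7 ± 2.96% with sgERH. In none of these did the 3 libraries of the guides overlap. These shares were not taken over all genes. Retention over all introns tested in the nucleus with DMSO was lower with sgERH too, with a median log2 fold change of -0.37. For SLC3A2 in the cytoplasm, levels of single forms are given, which cannot be set against these shares. The retained-intron form SLC3A2-224 rose there with sgERH from 3.07, 2.78 and 6.75 CPM to 20.03, 21.8 and 8.16 CPM (1.99 ± 0.42, adjusted p = 0.00949). The decay form SLC3A2-229 rose from a mean of 0.549 to 2.61 CPM (2.24 ± 0.31, adjusted p = 0.000868). The gene's summed level and the nuclear RNAs were also higher in these sgERH libraries, and the part of either was not tested.

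CHX in sgAAVS1 cells changed the forms more broadly. In the cytoplasm 34 of 242 member transcripts rose and 12 fell, against 8.08% and 3.89% of all transcripts, and in the nucleus 25 of 239 rose and 27 fell, against 7.12% and 6.32%. Of 54 decay forms tested in the cytoplasm 6 rose and 2 fell, with a median of 0.67, beside medians of 0.04 over 43 retained-intron forms and -0.30 over 131 protein-coding forms. The median over all transcripts of any type was 0.02. Counts and medians by type over all genes were not taken, so the split cannot be called particular to the members. The nuclear SLC3A2 rise was spread over several retained-intron forms. Among them SLC3A2-224 went from 134, 135 and 117 CPM to 612, 594 and 529 CPM (2.17 ± 0.13, adjusted p = 2.39e-06). SLC3A2-220 went from a mean of 58.4 to 314 CPM (2.43 ± 0.08, adjusted p = 1.61e-07). Retained-intron forms took 89.3 ± 0.895% of nuclear SLC3A2 with CHX in sgAAVS1 cells and 76.2 ± 1.20% in sgERH cells. XBP1-202, the canonical XBP1 transcript, fell with CHX in the cytoplasm from 18.6, 17.1 and 13.8 CPM to 4.54, 4.43 and 6.52 CPM (-1.67 ± 0.20, adjusted p = 0.000181).

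Intron retention was read from the intron depth and the spliced reads of each intron, as the IR ratio, the depth divided by the sum of depth and spliced reads, and the log2 fold change is that of depth relative to spliced reads. In the cytoplasm with DMSO, 138 member introns in 28 genes were tested, and 0 were called higher and 3 lower with sgERH, where 1.28% of all introns were called higher and 0.358% lower. For the count of 0, 26 were higher at an unadjusted p under 0.05; DESeq2 was not run on introns. The 3 calls are in CARS1 and read from 2 sets of reads. The intron at chr11:3001249-3001961 (minus strand, GRCh38) had IR ratios of 0.131, 0.136 and 0.152 with sgAAVS1 and of 0.0346, 0.0256 and 0.0215 with sgERH (-2.47 ± 0.24, adjusted p = 0.00217).

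With DMSO, 361 member introns in 31 genes were tested in the nucleus, and 1 was called higher and 20 lower, where 1.45% of all introns were called higher and 4.57% lower. The median was -0.44 over the members and -0.37 over all introns, so the members followed the introns at large. Some entries overlap and share reads, and the 21 calls come from 15 distinct sets of reads in 10 genes.

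The genes with a called nuclear intron included ATF4 and DDIT3. In ATF4 the entry at chr22:39520653-39521353 (plus strand), which overlaps a known exon, had IR ratios of 0.451, 0.433 and 0.465 with sgAAVS1 and of 0.246, 0.247 and 0.255 with sgERH (-1.30 ± 0.12, adjusted p = 0.000445). In DDIT3 the intron at chr12:57517181-57517268 (minus strand) went from 0.751, 0.766 and 0.823 to 0.596, 0.664 and 0.574 (-1.17 ± 0.21, adjusted p = 0.00848), and it lies within the bases shared with MARS1. In both genes the canonical form stood higher and the IR ratio lower in the same sgERH libraries. A link between these readouts of the same libraries was not tested.

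ATF5, ASNS and XBP1 had lower retention without a called change of the gene. In ATF5 the intron at chr19:49931029-49932421 (plus strand) had IR ratios of 0.783, 0.700 and 0.795 with sgAAVS1 and of 0.524, 0.570 and 0.454 with sgERH (-1.58 ± 0.28, adjusted p = 0.0085). In ASNS the intron at chr7:97869814-97871680 (minus strand) went from 0.616, 0.541 and 0.533 to 0.336, 0.381 and 0.428 (-1.08 ± 0.23, adjusted p = 0.0176), and in XBP1 the intron at chr22:28796193-28797076 (minus strand) from 0.651, 0.505 and 0.563 to 0.338, 0.393 and 0.421 (-1.10 ± 0.26, adjusted p = 0.0264). All sgERH libraries lay below all controls in these introns.

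The tRNA synthetases held the remaining nuclear calls. GARS1 at chr7:30628670-30631447 (plus strand) went from IR ratios of 0.168, 0.172 and 0.186 to 0.0811, 0.0902 and 0.0739 (-1.26 ± 0.16, adjusted p = 0.00168), and MARS1 at chr12:57512354-57512750 (plus strand) from a mean of 0.350 to 0.198 (-1.13 ± 0.17, adjusted p = 0.00377). CARS1 had 3 and EPRS1 2 introns called lower (-1.97 to -1.14 and -1.94 and -1.91). The single higher call was in NARS1 at chr18:57607334-57607443 (minus strand), with 0.228, 0.230 and 0.161 with sgAAVS1 and 0.377, 0.344 and 0.321 with sgERH (1.02 ± 0.20, adjusted p = 0.0138).

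**Figure D5:**
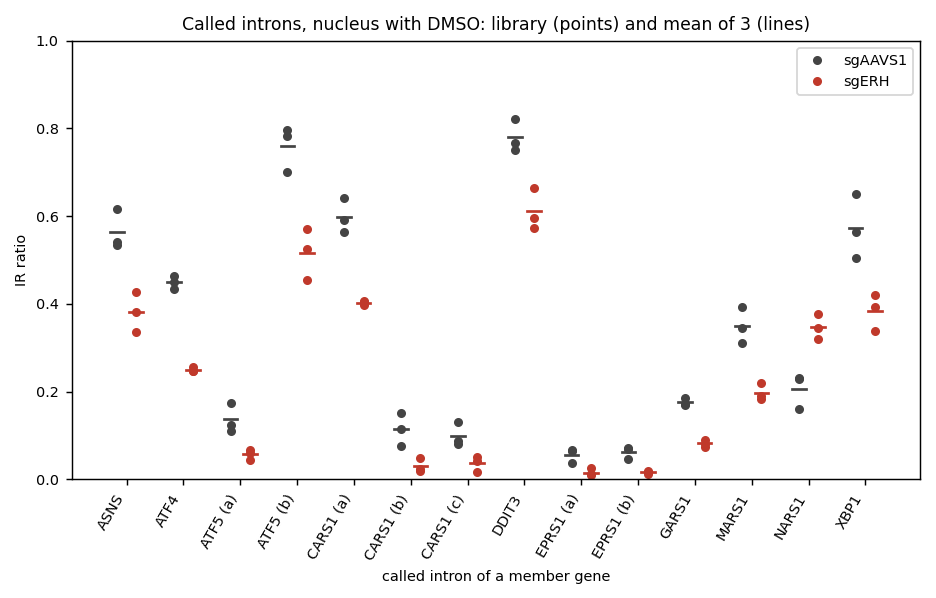
IR ratios (0 to 1) per nuclear library with DMSO for 14 member introns called with sgERH in 10 genes, with sgAAVS1 in grey and sgERH in red. The NARS1 intron lies higher with sgERH (0.321 to 0.377 against 0.161 to 0.230) and the others lie lower, as in ATF4 (0.246 to 0.255 against 0.433 to 0.465).

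The counting leaves some doubt on single members. On the other strand, 17 members have an annotated gene, and 12 have annotated copies with the same name. Copies held at most 17.2% of the counts of XBP1 and its copies in a library, 2.44% for SLC7A5, 0.462% for ASNS and 0.288% for ATF4.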

How the data were processed

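The 24 libraries were taken as the authors processed them, with nf-core/rnaseq, salmon and STAR. Per the labels' processing notes, fastp 0.23.4, SAMtools 1.16.1 and Picard 3.0.0 were among the tools, and the genome was GRCh38. The authors deposited expected counts per transcript from salmon, which were summed per gene and rounded here. The deposited TPM values, normalised per transcript length by the authors, served only to compare levels between genes, and the deposited transcript lengths only for a length offset. The deposited intron tables (IRFinder-S) gave the intron depth as a coverage signal, the counts of spliced reads and, as a fraction, the IR ratio, per library. Reads and their alignment were not used here, and whether counting used the strand is not given in the sources used here.

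R 4.3.3 with edgeR 4.0.16 was used. Genes and transcripts were kept by filterByExpr (minimum count 10), TMM-scaled and put through the quasi-likelihood F test, 12 libraries of a fraction in 1 fit; the 12 libraries with DMSO gave the comparison of the fractions. Calls required p, adjusted over all features after Benjamini and Hochberg, of 0.05 or less and a log2 fold change of 1 or more in size. SEs were taken from the log2 fold change and F (their ratio, with F square-rooted). For introns the tested term was guide by read type (depth or spliced), taking the larger of the spliced counts at either end, where depth plus spliced reads averaged at least 10 and depth at least 1 in a group, and calls with a mean IR ratio under 0.05 in both groups were dropped. The scripts were tested on simulated data.

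Total counts were 44.0 to 79.5 M per library in the cytoplasm and 27.8 to 41.8 M in the nucleus, and 0 pairs of libraries were identical. Alternatives were DESeq2 1.42.0, its scaling within edgeR, a length offset, no filter, only the groups compared, a replicate block, the adjusted p alone, other intron limits and leaving out each library. The members and lists were chosen with earlier results of these data known. Values per library are given for ATF4 and, in at least 1 comparison, each member called, and of the other lists up to 2 called genes per direction in each sgERH comparison are named, with those called for CHX alone added after their values were seen.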

Additional observations from a re-analysis of the deposited data

Results flagged for a closer look

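The sgERH effect differed between CHX and DMSO by a test of the difference itself for 4 members in the cytoplasm and 1 in the nucleus (edgeR, log2 scale, effect with CHX minus effect with DMSO). In the cytoplasm the difference was -1.37 for ATF4, -2.33 for ATF3, -1.14 for PPP1R15A and 1.04 for SLC7A5. In the nucleus it was -1.31 for ATF3.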

How the results depend on the processing

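Of 44 calls on 16 members, 36 were kept under every alternative and 8 were lost under at least 1, each named beside its gene. Of 786 values recomputed for members called in at least 1 setting, 751 kept their side of the limits, 11 fell below them, 24 passed them anew and 0 changed sign. The counts of members rested most on the size limit. With the adjusted p alone, members higher and lower with sgERH were 12 and 7 in the cytoplasm and 17 and 1 in the nucleus with DMSO, and 13 and 8 and 16 and 1 with CHX. They were 8 and 20 for CHX in the cytoplasm and 7 and 18 in the nucleus, 8 and 5 for the effect of CHX on the sgERH effect in the cytoplasm and 5 and 5 in the nucleus, and 13 and 5 between fractions. With a length offset, 0 were lower with sgERH in the cytoplasm with DMSO, 2 had a lower sgERH effect with CHX in the nucleus and 1 was lower between fractions. Fitting only the 6 libraries compared gave 1 member lower with sgERH in the nucleus with CHX.

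DESeq2 called 32 member transcripts higher in the cytoplasm and 19 in the nucleus, and without a filter, as with the replicate block, 1 transcript was lower in the cytoplasm. Without the IR ratio limit, 2 introns were higher and 9 lower in the cytoplasm and 2 higher in the nucleus. The cause was not tested. Leaving out 1 library at a time gave 2 to 4 members higher in the nucleus with DMSO, 4 to 7 higher and 0 to 1 lower in the cytoplasm with DMSO, and 0 to 1 lower in the nucleus with CHX. For the difference between treatments it gave 0 to 2 higher in the cytoplasm, and 0 to 1 higher and 1 to 2 lower in the nucleus. It gave 1 to 3 transcripts lower in the cytoplasm, 0 to 1 introns higher in the cytoplasm, and 0 to 1 introns higher and 13 to 23 lower in the nucleus.

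The replicate numbers did not pair the libraries: 54 correlations of same-numbered libraries lay between -0.035 and 0.083. With the replicate block, 5 members were higher and 1 lower in the cytoplasm with DMSO, and no count of member genes changed; transcripts were 17 higher in the cytoplasm and 10 in the nucleus. Low counts limit STC2, VLDLR, NUPR1, ALDH1L2 and nuclear CHAC1, whose differences were not detectable at this depth.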
